A study of Drosophila melanogaster with 2 samples.

Results

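Divergent promoters, where genes on opposite strands start close to each other, held 240 peaks of GFP-tagged Dif in whole *Drosophila melanogaster* larvae. The list held 4175 peaks in all, those past a threshold on reproducibility. The 240 are called divergent promoter peaks here. A peak was counted when its summit lay within 500 bp of annotated transcription start sites of 2 or more protein-coding genes, with at least 1 start on each strand. That was 5.75% of the peaks (95% Wilson interval 5.08% to 6.50%) and 10.4% (9.25% to 11.7%) of the 2301 peaks within 500 bp of any protein-coding start. The other 2061 promoter peaks had starts of 1 strand only within 500 bp and are called one-strand promoter peaks. The remaining 1874 peaks had no such start and lay away from starts.

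The material was chromatin from wandering larvae of the third instar, the stage at which larvae leave the food before pupariation, with males and females pooled and animals of unknown age. The line stably expressed a fusion protein with GFP at the C-terminal end of Dif, and chromatin was precipitated with an antibody against GFP and sequenced (ChIP-seq). Per the labels there was 1 group with 2 biological replicates, numbered 3 and 4. The sources used here do not say what drives the fusion gene. In whole larvae a signal seen in few cells and a weak signal seen in many cannot be told apart. Peaks passed the irreproducible discovery rate (IDR) threshold, which is set from how alike replicates rank peaks. It does not show for each peak that both replicates held it or ranked it alike. The 4175 peaks were also the 4175 strongest of the list called on both replicates pooled. Relaxed lists of 30000 peaks and background regions each were used for replicate 3, replicate 4 and the pool. The peak signal is the authors' value, whose scaling the sources used here do not state, and levels were compared within 1 list only. The files hold no read counts, so depth is unknown, and intervals cover counting error only. With 1 group and 2 replicates no test across samples exists. Peaks share their 2 libraries and are not replicates, so shares and medians are given with 95% intervals and without p-values.

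Dif is one of the NF-κB proteins of the fly and acts downstream of the Toll receptor, which fungal and Gram-positive bacterial infection activates. NF-κB proteins bind short G-rich and C-rich sites called κB sites. Fly genes are densely packed, and a nucleosome-depleted stretch often serves 2 genes that are transcribed away from each other. Promoters of broadly expressed fly genes often hold the DNA replication-related element (DRE), bound by DREF, or core promoter Motif 1, bound by M1BP. The insulator protein BEAF-32, which binds CGATA words, is known for binding between head-to-head genes. GA repeats are bound by the GAGA factor, known from developmentally and environmentally controlled promoters.

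The sequences between both start sites show what such promoters look like. Those of the 6 strongest peaks of 1 kind are given first, the kind being head-to-head genes 40 to 300 bp apart with the summit between the starts and no exon there, on the arms from which sequence is printed. All are Release 6 (dm6) sequence from RefSeq, plus strand, 5′ to 3′, with starts from Ensembl release 115. Capitals mark GAGAGAG, TATCGATA (DRE), CGATA (BEAF-32 core), GGTCACAC (Motif 1 core) and CAGCTG on either strand, except at MtnA, where they mark TGCACNC, the core of the metal response element.
eIF2Balpha and Vps13B, chr3R:29935889-29935977: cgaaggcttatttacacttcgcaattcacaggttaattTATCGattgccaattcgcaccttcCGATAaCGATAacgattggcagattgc
MtnA and CG8500, chr3R:9784371-9784652: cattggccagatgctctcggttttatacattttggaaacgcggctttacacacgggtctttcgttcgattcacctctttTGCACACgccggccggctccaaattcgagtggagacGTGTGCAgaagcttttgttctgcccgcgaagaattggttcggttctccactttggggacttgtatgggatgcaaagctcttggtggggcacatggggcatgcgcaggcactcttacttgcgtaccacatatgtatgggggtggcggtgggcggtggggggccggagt
Bacc and Pgk, chr2L:2753069-2753232: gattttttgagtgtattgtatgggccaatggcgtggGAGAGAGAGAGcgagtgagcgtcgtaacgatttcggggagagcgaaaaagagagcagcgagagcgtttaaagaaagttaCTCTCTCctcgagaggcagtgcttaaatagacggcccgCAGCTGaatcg
CG12974 and pzg, chr3L:21285963-21286098: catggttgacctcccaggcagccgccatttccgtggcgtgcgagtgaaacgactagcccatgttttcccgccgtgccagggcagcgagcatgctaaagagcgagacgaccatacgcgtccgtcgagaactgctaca
Vps13D and CG10973, chr3L:12754775-12755048: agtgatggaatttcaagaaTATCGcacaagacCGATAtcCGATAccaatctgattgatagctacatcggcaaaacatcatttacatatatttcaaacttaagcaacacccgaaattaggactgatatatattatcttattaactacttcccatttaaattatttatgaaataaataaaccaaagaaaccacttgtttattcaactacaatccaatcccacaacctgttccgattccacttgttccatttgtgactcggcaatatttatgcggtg
CG1233 and Cdc5, chr3L:361384-361471: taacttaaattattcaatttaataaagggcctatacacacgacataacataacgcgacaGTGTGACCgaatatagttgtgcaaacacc
Of these, 1 held a GA repeat (Bacc and Pgk), 1 a Motif 1 core (CG1233 and Cdc5) and 2 several CGATA words (eIF2Balpha with Vps13B, and Vps13D with CG10973). At Vps13D with CG10973 the CGATA words lie near the CG10973 start, more than 100 bp from the summit. That peak therefore does not count as holding the BEAF-32 core in the shares below. The stretch between CG12974 and pzg held none of the marked words. MtnA encodes a metallothionein, and its stretch held 2 matches to the metal response element core, a motif looked for there after the gene was seen. That core lay within 100 bp of the summit at 12.1% of divergent promoter peaks, 11.0% of one-strand promoter peaks and 8.15% of all 19607 protein-coding start sites.

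A further 4 stretches of the same kind show the DRE and the Motif 1 core, whose shares set divergent and one-strand promoter peaks apart below. The first 2 hold a full DRE, which contains CGATA, and the others a Motif 1 core.
CG1074 and eIF3a, chr3R:4433896-4433964: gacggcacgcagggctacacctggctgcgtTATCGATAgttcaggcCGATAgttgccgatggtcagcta
TrpRS and Vps16A, chr3R:9266905-9267018: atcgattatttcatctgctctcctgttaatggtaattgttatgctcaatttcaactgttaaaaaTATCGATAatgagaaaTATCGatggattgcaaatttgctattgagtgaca
Prp3 and Mi-2, chr3L:19910216-19910299: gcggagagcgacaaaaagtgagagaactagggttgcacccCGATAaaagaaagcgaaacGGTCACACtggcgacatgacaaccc
Top3beta and wuho, chrX:6287991-6288099: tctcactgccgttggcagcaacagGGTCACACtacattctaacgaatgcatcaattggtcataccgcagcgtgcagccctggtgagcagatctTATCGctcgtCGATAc
These were weaker peaks, with signals of 130 at eIF3a, 85.5 at TrpRS, 140 at Mi-2 and 100.5 at Top3beta. eIF3a is a subunit of an initiation factor of translation, TrpRS a tryptophanyl-tRNA synthetase, Mi-2 a nucleosome remodeller and Top3beta a topoisomerase.

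At most of these peaks the genes stood head to head. The nearest minus-strand start lay to the left of the nearest plus-strand start at 224 of 240 peaks (93.3%, 89.4% to 95.9%), so that the genes run apart. At the other 16 the starts were crossed and the transcripts overlapped by 26 to 583 bp. One of the 16 was the peak at Fer1HCH and Fer2LCH, the genes of both ferritin subunits, named here after its values were seen, with a signal of 223 and ranks of 1265 in replicate 3 and 510 in replicate 4. The nearer start was on the plus strand at 118 of 240 peaks. The peaks were spread over arms 2L (43), 2R (49), 3L (45), 3R (73), 4 (1) and X (29), which was 8.61% to 14.3% of the promoter peaks of each arm, the highest value resting on the 1 peak of chromosome 4. They lay at 231 distinct sets of genes, since 9 sets had 2 peaks each, among them Sec15 with rtet, Vha100-2 with Vti1b, and CG12253 with piwi. At 225 peaks 2 genes had a start in reach, at 14 peaks 3 genes, and at 1 peak on X 4 genes, CG33932, Rpp20, CG18809 and COX6B.

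Summits sat close to 1 of both starts rather than midway. Among the 224 head-to-head peaks the starts were 12 to 711 bp apart, with a median of 276.5 bp, and the summit lay between them at 127 (56.7%, 50.1% to 63.0%). At the other 97 it lay outside, downstream of one of the starts. Of the 127 summits between starts, 46 (36.2%, 28.4% to 44.9%) were nearer to the midpoint than to either start. The nearer start was a median of 39 bp away and the farther one 292.5 bp. For one-strand promoter peaks the nearest start was a median of 77 bp away, and a start lay within 50 bp at 62.9% of divergent (56.6% to 68.8%) and 34.7% of one-strand promoter peaks (32.7% to 36.8%). Having starts on both strands in reach makes a short distance more likely by construction. Summits lay in a 5′ UTR at 52.9% of divergent and 32.7% of one-strand promoter peaks, in an intron at 8.75% and 30.7%, and between genes at 36.3% and 32.3%. For 180 of the 240 peaks the deposited width was 244 bp, the commonest in the list.

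**Figure D1:**
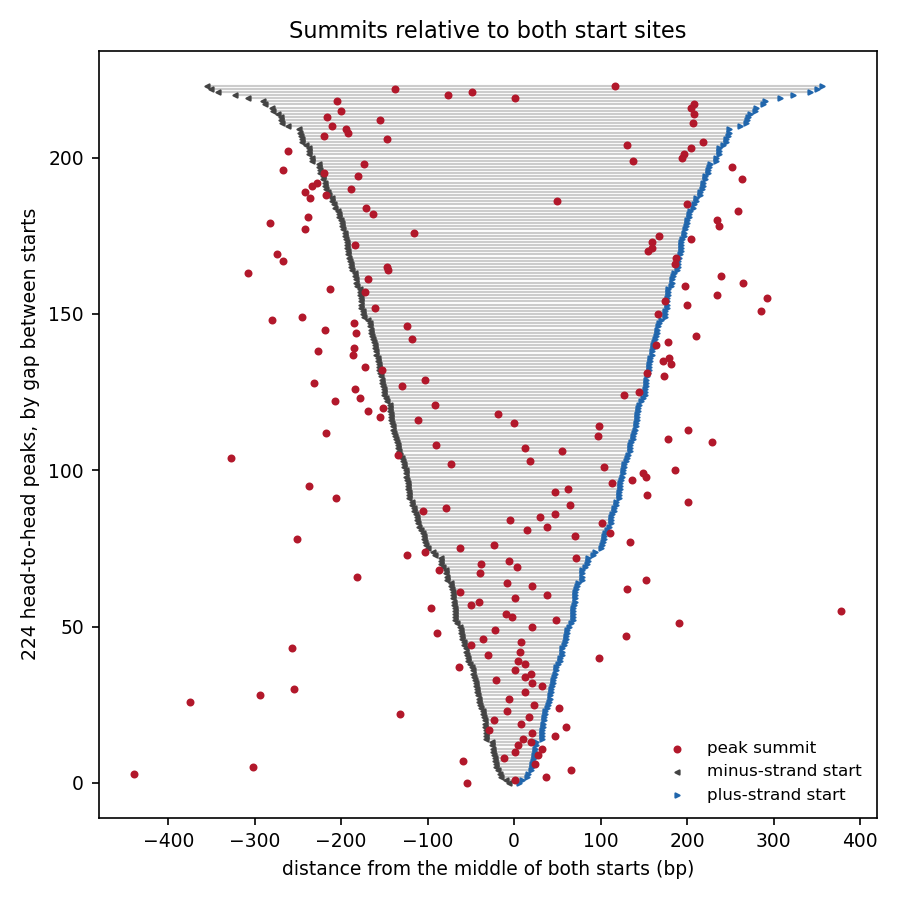
Summits of the 224 head-to-head peaks (red) between the minus-strand start (dark triangles) and the plus-strand start (blue triangles), as distance in bp from the midpoint of both starts, 1 row per peak in order of the gap. Most summits follow one of both start lines, and 127 lie between the starts.

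The strongest divergent promoter peaks ranked at the very top of the list. The highest lay between CG3253 and CG4049 (2R, 24114185 to 24114488), starts 106 bp apart, with a signal of 4138 and rank 2 of the 4175 peaks. Its signal was 3218 in the list of replicate 3 and 924 in that of replicate 4, and it ranked 2 in both. How the signals of these lists are scaled to each other is not stated. The next was at Mic26-27, a subunit of the complex that shapes mitochondrial cristae, and CG5916 (3R, 16146479 to 16146918). Its signal was 3587, with rank 3 in replicate 3 and 4 in replicate 4, and its summit lay 8 bp inside a 5′ UTR. CG12299 and Vha16-5 followed on 2L (10737178 to 10737470, signal 2780). Vha16-5 belongs to the proteolipid subunits of the vacuolar proton pump, and the peak ranked 4 in replicate 3 and 3 in replicate 4. DUBAI, a deubiquitinating enzyme, and Tmem18 had a signal of 1975 and rank 7 in both replicates. These 4 peaks therefore stood in the same few places in both replicates.

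Peaks of rank 12 to 51 in the IDR list followed. eIF2Balpha, a subunit of the exchange factor for eIF2, and Vps13B, a lipid transfer protein, shared a peak of signal 1353, with ranks 16 in replicate 3 and 14 in replicate 4. Mov10, an RNA helicase, and CG8950 had 1261, with ranks 15 and 31 in replicates 3 and 4. Sec15, an exocyst subunit, and rtet had 1147, with ranks 18 and 29. MtnA and CG8500 had 1111, with ranks 42 in replicate 3 and 11 in replicate 4. Bacc and Pgk, the glycolytic phosphoglycerate kinase, had 1026, with ranks 21 and 66. Su(z)12, a subunit of Polycomb repressive complex 2, and Pfdn6, a prefoldin subunit, had 849, with ranks 111 in replicate 3 and 12 in replicate 4, and the peak of CG12974 and pzg, a chromatin protein, had 816 with ranks 56 and 22. The other peaks among the strongest 20 had signals of 429 to 804. They lay at Vps13D, Dus2 (a tRNA dihydrouridine synthase), Cdc5 (a splicing factor), Pax (paxillin, of cell adhesions), Dis3 (an exosome nuclease) with Rrp5 (ribosome assembly), JhI-21 (an amino acid transporter), Dic1 (a mitochondrial dicarboxylate carrier) with Elp6 (an Elongator subunit), SMSr with smid, and jvl with smp-30. Of these 9, Pax ranked 82 in replicate 3 and 694 in replicate 4, and Dis3 ranked 175 in replicate 3 and 176 in replicate 4.

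Below that top, divergent promoter peaks had a lower median signal than one-strand promoter peaks. Their median signal was 120 (order-statistic interval 110 to 130), against 144 (140 to 148) for one-strand promoter peaks, and 42.9% of them (36.8% to 49.2%) were stronger than the median of the list, against 55.0% (52.9% to 57.2%). At the upper end the order turned: of the 25 strongest peaks of all 9 were divergent promoter peaks, 15 one-strand promoter peaks and 1 a peak away from starts. The 12 strongest held 37.0% of the summed signal of all 240, and the 12 strongest one-strand promoter peaks held 5.37% of theirs. These shares are not alike in kind, since 12 peaks are a far larger part of 240 than of 2061. At equal fractions, the 90th percentile was 372 for divergent and 359 for one-strand promoter peaks, and the upper quartile 190 and 222. With a GA repeat within 100 bp of the summit the medians were 185 for divergent and 180 for one-strand promoter peaks. With the DRE or Motif 1 they were 100.5 and 120.1, and with none of these motifs 120.2 and 129.7. What part motif content has in the lower median was not tested. Peaks with the summit between the starts had a median of 125 (108 to 154) and those with it outside 112 (104 to 124). Of the 9 divergent promoter peaks among the 25 strongest, 8 had the summit between the starts and 1 outside.

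**Figure D2:**
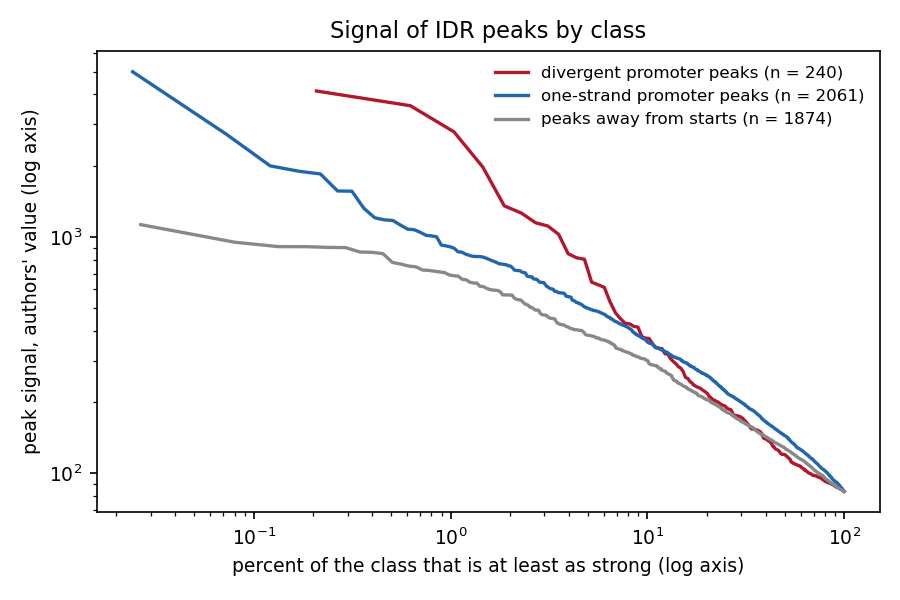
Peak signal (authors' value, log axis) against the percent of each class that is at least as strong (log axis), for divergent promoter peaks (red), one-strand promoter peaks (blue) and peaks away from starts (grey). The red line is highest among the strongest few percent and falls below the blue line toward the weaker peaks, where the medians are 120 and 144.

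Counted per length of sequence, the intervals of both kinds of promoter overlapped. Sequence within 500 bp of starts of both strands covered 1.67 Mb and held 143 IDR summits per Mb (exact Poisson interval 126 to 163). Sequence near starts of 1 strand covered 13.7 Mb and held 151 per Mb (144 to 158), and the rest of the arms 15.8 per Mb. In the relaxed lists the densities came apart, with 810 per Mb near starts of both strands and 555 near starts of 1 strand in replicate 3, and 828 and 556 in replicate 4. By rank in the pooled list, two-strand promoters made up 17.3% (10.4% to 27.4%) of the promoter summits among peaks 1 to 100, 7.17% at ranks 101 to 500, 6.51% at 501 to 1000, 8.38% at 1001 to 2000, 12.8% at 2001 to 4175 and 16.5% at 4176 to 10000. The share was thus high at both ends and low in the middle. In replicate 3 the first bin held 16.2% and the bin 501 to 1000 held 7.47%, and in replicate 4 they held 15.4% and 5.66%.

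**Figure D3:**
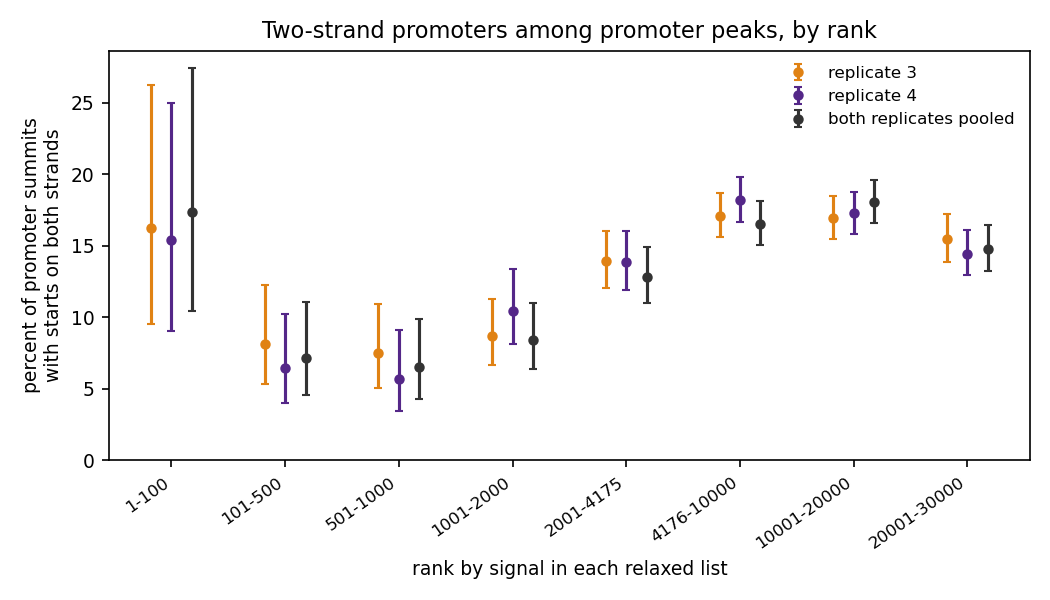
Percent of promoter summits that have starts on both strands, by rank of signal in the lists of replicate 3, replicate 4 and the pool, with 95% Wilson intervals as bars. The points of all 3 lists are high at ranks 1 to 100, low at 101 to 1000 and higher again beyond 4175. The bars at ranks 1 to 100 are wide and overlap those at 101 to 500.

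Seen over genes, 476 of 13945 protein-coding genes had a start at a divergent promoter peak, 3.41% of all, and 2127 had an IDR summit within 500 bp of a start, 15.3% of all. The annotation holds 2667 pairs of head-to-head starts up to 1000 bp apart. An IDR summit lay within 500 bp of both starts at 238 pairs (8.92%, 7.90% to 10.1%). In each 100 bp step of the gap up to 500 bp the share lay between 10.1% and 12.4%, and it was 1.34% at 501 to 1000 bp, where fewer positions are in reach of both starts. Of the 5052 genes in such pairs 16.3% (15.3% to 17.3%) had an IDR peak at any start, against 14.7% (14.0% to 15.4%) of the other 8893. With summits of the pooled relaxed list, which holds background regions too, the shares were 62.1% and 43.9%.

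Motif content differed between divergent and one-strand promoter peaks. The GA repeat GAGAGAG lay within 100 bp of the summit at 28 of 240 divergent promoter peaks (11.7%) and at 35.8% of one-strand promoter peaks, a difference of -24.1 percentage points (Newcombe interval -28.1 to -19.0), where 34.6% of all IDR peaks held it. The Motif 1 core lay at 32 divergent promoter peaks (13.3%) and 3.25% of one-strand promoter peaks, a difference of 10.1 points (6.26 to 15.0), where 2.61% of all IDR peaks held it. The DRE lay at 19 (7.92%) and 2.04%, a difference of 5.88 points (3.00 to 10.03), with 1.63% over all IDR peaks. The BEAF-32 core lay at 102 (42.5%) and 24.8%, a difference of 17.7 points (11.3 to 24.3), with 22.7% over all IDR peaks. All 4 intervals exclude 0. In the strongest 4175 peaks of each replicate alone, the GA repeat difference was -23.1 points in replicate 3 and -21.2 in replicate 4, and the BEAF-32 core difference 16.4 and 22.0 points. The Motif 1 difference was 9.71 points in replicate 3 and 5.24 in replicate 4, and the DRE difference 4.35 and 5.45. With starts within 200 bp the BEAF-32 core difference was 28.8 points and the DRE difference 11.1. Among peaks above the median signal of the list the DRE difference was 2.03 points, and with motif windows of 50 bp the Motif 1 difference was 4.50. Windows at divergent promoter peaks had a median GC content of 46.3%, against 49.8% at one-strand promoter peaks, and summits nearer to a start. What part these have in the motif differences was not tested.

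The words of broadly used promoters were also frequent at two-strand promoter summits outside the IDR list. Such weaker summits come from the pooled relaxed list, which holds background regions as well as peaks. How many of them are peaks is unknown. Among the 1092 two-strand promoter summits of the pooled relaxed list that are not in the IDR list, 11.4% held the Motif 1 core, 8.70% the DRE, 42.0% the BEAF-32 core and 3.02% the GA repeat. These shares are near those of divergent promoter peaks, except that of the GA repeat, which was 11.7% (8.20% to 16.3%) at divergent promoter peaks and 3.02% (2.16% to 4.21%) at the weaker summits. At the 5476 weaker one-strand promoter summits the shares were 3.51% for Motif 1, 3.31% for the DRE, 29.5% for the BEAF-32 core and 7.45% for the GA repeat. At the midpoints of all 2667 head-to-head pairs they were 5.40% for Motif 1, 8.55% for the DRE, 41.3% for the BEAF-32 core and 2.32% for the GA repeat. At all 19607 protein-coding starts they were 5.68%, 6.43%, 37.2% and 4.67% in the same order, so the DRE and the BEAF-32 core were about as frequent at head-to-head midpoints in general as at divergent promoter peaks. In windows 1000 bp from the summit of 231 divergent promoter peaks, 0.866% held the Motif 1 core, 23.4% the BEAF-32 core, 3.46% the GA repeat and 0 the DRE.

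**Figure D4:**
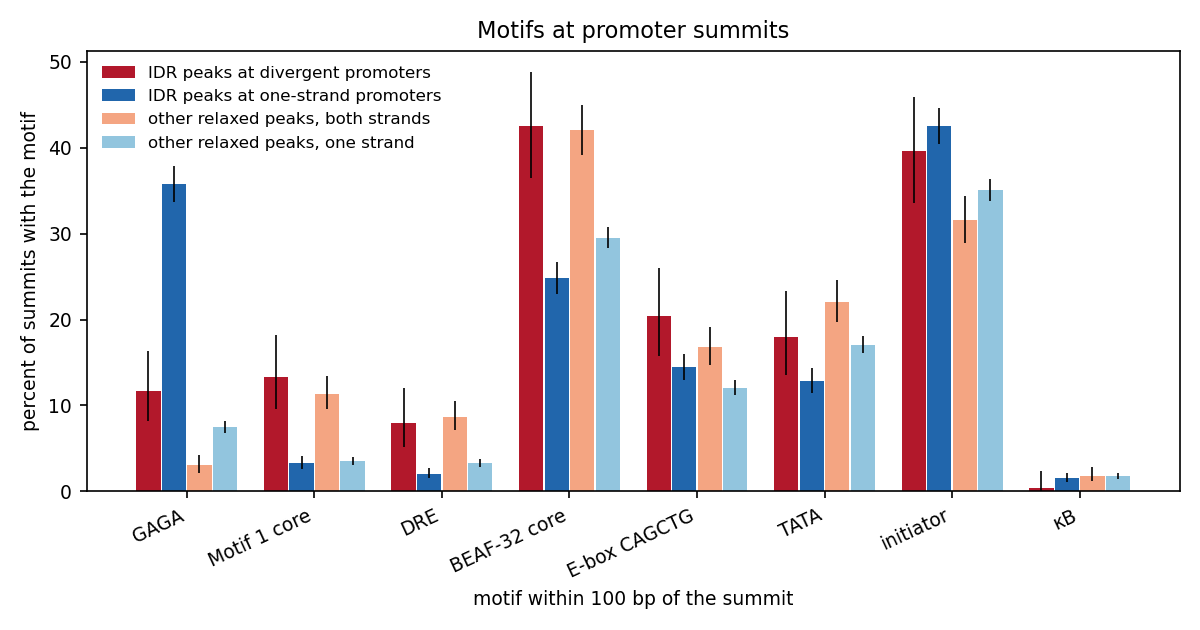
Percent of summits with each motif within 100 bp, for divergent promoter peaks (red), one-strand promoter peaks (blue) and the promoter summits of the pooled relaxed list outside the IDR list with starts on both strands (pale red) or on one strand (pale blue), with 95% Wilson intervals. The GA repeat is at 11.7% of divergent and 35.8% of one-strand promoter peaks, and the Motif 1 core, the DRE and the BEAF-32 core are more frequent in both two-strand classes.

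GA repeats went with a higher median signal among divergent promoter peaks, but the very strongest of these peaks lacked them. The strongest peak with the repeat was that of Bacc and Pgk (signal 1026), number 9 among divergent promoter peaks by signal, and none of the stronger ones held it. The median signal was 185 (130 to 270) for the 28 peaks with the repeat and 115 (106 to 125) for the 212 without it. In 4 bins of 60 peaks each, from the strongest bin to the weakest, 14, 6, 6 and 2 held it. In 4 such bins of one-strand promoter peaks the shares were 51.6%, 40.2%, 28.0% and 23.3%. In both kinds the strongest bin held the most GA repeats and the weakest the fewest. Peaks with the repeat included those of Bacc with Pgk, Pax, JhI-21, Dic1 with Elp6, SMSr, jvl, imd with Dp1, and Dsp1. Peaks with the DRE had a median of 99.6 (90.6 to 130) and those with the Motif 1 core 101 (94.2 to 137). Some strong peaks were among them, with signals of 628 at CG1233 and Cdc5 (Motif 1) and 337 at Usp8 and Trm7-34 (DRE). The DRE or Motif 1 lay at 51 divergent promoter peaks (21.3%) and 5.05% of one-strand promoter peaks. The DRE and Motif 1 together lay at 0 of 240, where 3 counts of 240 would be 1.25% and the Wilson interval reaches 1.58%, and 164 (68.3%) held neither of them nor a GA repeat. The BEAF-32 core lay at 53.5% of the peaks with the summit between the starts (44.9% to 62.0%) and at 29.9% of those with it outside (21.7% to 39.6%).

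The κB site, searched as 1 fixed consensus, was rare in these windows. It lay at 1 of 240 divergent promoter peaks (0.417%), that of CG42613 and Mpc1, a subunit of the mitochondrial pyruvate carrier, and at 1.55% of one-strand promoter peaks and 1.25% of all IDR peaks. In the windows 1000 bp away it lay at 12 of 231 (5.19%). The site lay at 1.34% of all protein-coding starts, 1.20% of the midpoints of head-to-head pairs and 1.83% of the weaker two-strand promoter summits. The share at divergent promoter peaks rests on a count of 1. For the other 7 words the differences were below 6 percentage points. CAGCTG lay at 20.4% of divergent and 14.5% of one-strand promoter peaks (13.6% of all IDR peaks), TATAAA at 17.9% and 12.9% (11.3%), CACGTG at 5% and 3.35% (3.47%), and the initiator word TCAGT at 39.6% and 42.5% (33.9%). The intervals of the difference excluded 0 for CAGCTG (1.08 to 11.7 points) and TATAAA (0.47 to 10.6 points). The CAGCTG difference was 14.0 points when starts had to lie within 200 bp, 1.79 within 1000 bp, and 2.29 with motif windows of 50 bp. The TATAAA difference was 1.64 points in the strongest 4175 peaks of replicate 3, 7.78 in those of replicate 4, and -5.25 when starts had to lie within 200 bp. TATAAA lay at 26.8% of all protein-coding starts, 39.8% of the midpoints of head-to-head pairs and 22.1% of the weaker two-strand promoter summits. In the windows 1000 bp away it lay at 19.9%. For CAGCTG these shares were 13.5%, 12.7%, 16.8% and 15.6% in the same order. CAGGTAG, the Zelda word, lay at 0.833% of divergent promoter peaks (1.7% of all IDR peaks), the AP-1 word TGANTCA at 2.50% (3.57%) and the Stat92E word TTCNNNGAA at 5% (3.45%). A match is a word in the sequence and shows no binding by the factor.

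Replicate 3 held nearly all divergent promoter peaks and replicate 4 fewer, and so it was for all IDR peaks. A summit of the full list of replicate 3 lay within 100 bp of 238 of the 240 (99.2%, 97.0% to 99.8%), and of replicate 4 of 201 (83.8%, 78.6% to 87.9%). For one-strand promoter peaks these shares were 98.4% and 88.5%, and for all IDR peaks 98.0% and 87.3%. Both replicates had a summit at 199 divergent promoter peaks (82.9%, 77.6% to 87.2%), against 87.0% (85.5% to 88.4%) of one-strand promoter peaks, a difference of -4.08 points (-9.53 to 0.42). With the 4175 strongest peaks of each replicate, both had a summit at 49.6% of divergent and 59.2% of one-strand promoter peaks, a difference of -9.66 points (-16.3 to -3.02). In replicate 4 alone the shares were 56.7% and 66.7%, and in replicate 3 88.3% and 89.6%. Divergent promoter peaks had a lower median signal, as given above, and what part this has was not tested. Across the 199 peaks in both lists, which share their libraries, the Spearman correlation of signal was 0.49, and across 1793 one-strand promoter peaks 0.55. The largest difference in rank was at bigmax and Hmu, with rank 2092 in replicate 3 and 27163 in replicate 4. CG11825 with CG33474 (1907 and 25643), CG42613 with Mpc1 (1950 and 22074), Dif with CG5043 (3328 and 22790) and Pcyt1 with CG32313 (673 and 18061) followed, all ranked higher in replicate 3.

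**Figure D5:**
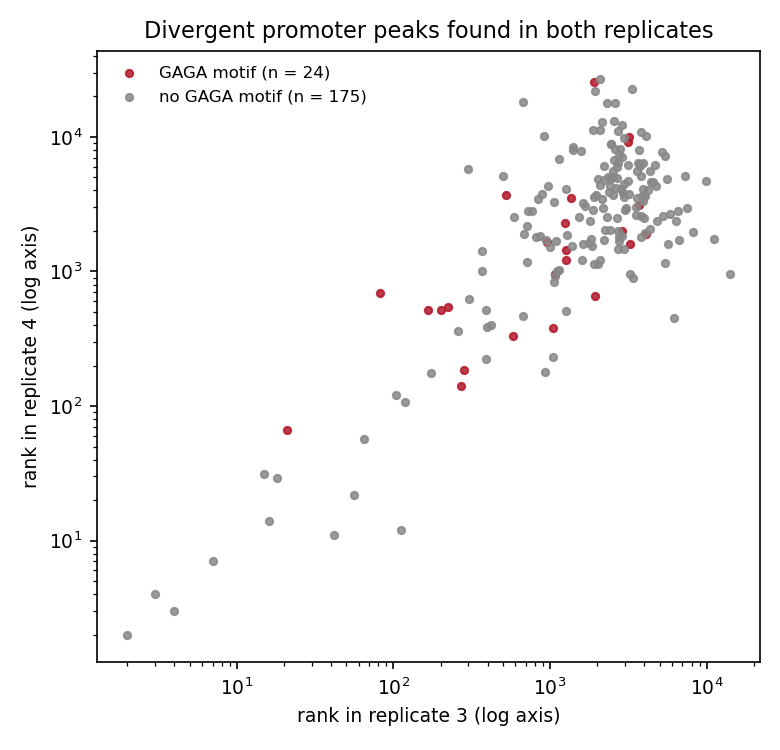
Rank by signal in replicate 4 against rank in replicate 3 (both log axes) for the 199 divergent promoter peaks with a summit in both lists, 24 with a GA repeat (red) and 175 without (grey). Ranks lie close together for the few strongest peaks and scatter widely further down, as at Pcyt1 with CG32313 (673 in replicate 3 and 18061 in replicate 4).

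For each gene list, the share over all protein-coding genes to read it against is 15.3% for an IDR peak at a start and 3.41% for a divergent promoter peak. In the Toll list 14 of 24 genes had an IDR peak and 2 of 24 (8.33%) a divergent promoter peak. These were Toll-9, a Toll family receptor whose peak is shared with the gene in (signal 120, its start 442 bp from the summit, ranks 3392 in replicate 3 and 900 in replicate 4), and Dif itself with CG5043 (signal 89.9, start 213 bp away). In the Imd list 11 of 24 genes had an IDR peak and 2 (8.33%) a divergent promoter peak. imd, the adaptor of the pathway, shared a peak with Dp1 (signal 419, ranks 272 in replicate 3 and 140 in replicate 4), and PGRP-LE, a peptidoglycan sensor, shared one with sd (signal 130, its start 463 bp away). Of 32 antimicrobial peptide and Bomanin genes 1 had an IDR peak, at Drsl6, whose start lay 485 bp from a summit nearer to kst and which had no summit in replicate 4. Of 22 ecdysone response genes 20 had an IDR peak and 0 a divergent promoter peak, and 4 of the 22 are in head-to-head pairs. At the 3.41% of all genes, a list of 22 would hold under 1 such gene. In the strongest 4175 peaks of replicate 4 alone, 4 Imd genes and 0 antimicrobial peptide or Bomanin genes were at such a peak.

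Genes of protein synthesis and energy metabolism are often paired head to head, and several of their peaks were of this kind. Of 86 cytosolic ribosomal protein genes 53 are in head-to-head pairs (61.6%, against 36.2% of all genes), 30 had an IDR peak (against 15.3% of all genes) and 11 (12.8%) a divergent promoter peak (against 3.41%). The strongest were those of RpS20 with CG17271 (signal 321, rank 432 in replicate 3, no summit in replicate 4), RpL7 with Ripalpha (186, ranks 1057 and 3292), sta with inc (175, ranks 967 and 4290) and RpL3 with CG6693 (153, ranks 2019 and 1129). Of 73 mitochondrial ribosomal protein genes 58 are paired, 7 had an IDR peak and 6 (8.22%) a divergent promoter peak, led by mRpL11 with HtrA2 (254), mRpL53 with AGO1 (188) and mRpS26 (116). ATPsynD and mRpL55 shared 1 peak (93.1), so that a subunit of ATP synthase and a mitochondrial ribosomal protein have it in common. Among 86 respiratory chain and ATP synthase genes, 10 had an IDR peak and 5 (5.81%) a divergent promoter peak, SdhC (190), ATPsynbeta (141), COX6B (108), ATPsynD and UQCR-6.4 (85.0). In the strongest 4175 peaks of replicate 4 alone the last count was 3. Some summits lay far from the start of the listed gene and close to that of its partner. This was so at mRpS26 (457 bp), SdhC (436, partner Tctp), mRpL11 (336) and RpS20 (290). The starts of the other genes named from these lists were 10 to 91 bp away.

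Other housekeeping lists gave small counts, again to be read against 15.3% of all genes with an IDR peak and 3.41% with a divergent promoter peak. Among 32 proteasome genes 5 had an IDR peak and 4 (12.5%) a divergent promoter peak, Prosalpha6 of the core particle (149), Rpn9 (106 and, at a second peak, 90.6), Rpt5 (95.3) and Rpn13 (95.2). Rpt5, Prosalpha6 and the second Rpn9 peak had no summit in replicate 4. Among 33 vacuolar ATPase genes 7 had an IDR peak and 4 (12.1%) a divergent promoter peak, Vha16-5, Vha100-2 (340 and 211), Vha55 (126) and Vha44 (89.3). Of 52 translation factor genes 14 had an IDR peak and 5 (9.62%) a divergent promoter peak, eIF2Balpha, eIF3a, eIF4EHP (113), eIF1, which shares its peak with RpL28 (93.0), and eEF1alpha1 (92.9). Of 33 aminoacyl-tRNA synthetase genes 2 had one, ArgRS-m (194) and TrpRS, and of 25 Mediator genes 3, MED6 (122), MED27 (86.8) and MED10 (84.0). Orc2 (205), of the origin recognition complex, and Atg18a (87.1), of autophagy, were single cases among 12 and 20 genes. The peaks of eIF4EHP, MED10 and Atg18a also had no summit in replicate 4. Again some summits lay far from the start of the listed gene and closer to that of its partner. This was so at Prosalpha6 (482 bp, partner Npc1a), eIF1 (432), Rpn13 (364), MED27 (357), ArgRS-m (309), Vha16-5 (278) and eEF1alpha1 (260). The start of Orc2 was 239 bp away and the other starts named here 3 to 93 bp. In the strongest 4175 peaks of replicate 4 alone the counts were 1 proteasome, 3 translation factor and 0 origin or Mcm genes, and in those of replicate 3 alone 1 aminoacyl-tRNA synthetase gene. Over the 14 lists together 47 of 554 genes (8.48%) were at a divergent promoter peak, and 56.9% of the 554 are in head-to-head pairs.

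The distance of 500 bp sets who counts. Just inside it were a second peak of Sec15 and rtet (signal 121, farther start at 498 bp) and the peak of jvl and smp-30 (429, at 496 bp). Just outside were a second peak of Dp1 and imd (159, at 503 bp) and one of E(bx) and mthl14 (177, at 505 bp). In the last 50 bp inside the distance lay the farther start of 28 divergent promoter peaks, and in the first 50 bp outside it the opposite start of 47 one-strand promoter peaks.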

How the data were processed

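Dif-GFP ChIP-seq peak lists of 2 biological replicates on dm6 were used, and those on dm3 were not. Per the file headers, the authors deposited lists of peaks and background regions for each replicate and for the pool, and a list thresholded by IDR. The sources used here do not name the aligner, the peak caller or the control. The deposited signal per peak is the authors' value with no stated scaling, and the deposited −log10 q value lay between 3.26 and 3.74 in the IDR list. The lists hold no read counts, so depth is unknown.

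Summits were placed against 19607 start sites of 13945 protein-coding genes of Ensembl release 115, with sequence from the RefSeq Release 6 assembly. ATG stood in that sequence at 30540 of 30593 annotated start codons (99.8%). Words were searched on both strands within 100 bp of the summit. The κB site was searched as 1 fixed 10-letter consensus of NF-κB sites, so sites that depart from it were not counted. Shares have Wilson, differences Newcombe, densities exact Poisson and medians order-statistic intervals, all at 95%. The scripts were tested on simulated data. Python 3.11.15, NumPy 2.4.6, pandas 2.3.3, SciPy 1.17.1 and matplotlib 3.10.9 were used.

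The peaks, the 14 gene lists and the 12 motifs were chosen with earlier results of these data known. Genes were named by rule: those at the 20 strongest peaks, up to 4 per list by signal, the peaks with the most genes, the 5 largest rank differences between replicates, and peaks next to the 500 bp limit. Where a list had 5 or fewer genes at such peaks all were named. Genes named as examples of a motif or of an arrangement were chosen after their values were seen, and so was the metal response element.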

Additional observations from a re-analysis of the deposited data

How the results depend on the processing

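The rule on distance moved the number of divergent promoter peaks most: 88 (2.11% of the IDR list) with starts within 200 bp, 511 (12.2%) within 1000 bp, 362 (8.67%) with genes of every kind, 103 (4.94%) above the median signal of the list, and 5.03% with 1 start per gene. Without replicate 3 or 4, using the strongest 4175 peaks of the other, it was 246 and 265. The ratio of summit densities, two-strand over one-strand, was 0.95 as reported, 1.14 with 1000 bp and 0.741 above the median signal, where the ratio of median signals was 0.975 against 0.831 as reported. The DRE difference was 11.1 points with starts within 200 bp, 11.1 with motif windows of 250 bp and 2.03 above the median signal. The BEAF-32 core difference was 28.8 and the CAGCTG difference 14.0 with starts within 200 bp. The Motif 1 difference was 5.40 points with 1000 bp, 4.50 with motif windows of 50 bp, and between 5.24 and 9.71 with 1 replicate left out. The share of peaks found in both replicates differed by -9.66 points with the strongest peaks of each. Head-to-head pairs with a summit were 45.1% with the pooled relaxed list and 11.5% for starts up to 500 bp apart. The pooled relaxed list put 173 listed genes at a two-strand summit. Signs changed for AP-1 (0.816 and 0.0481 points without replicates 3 and 4) and Stat92E (-2.22 with 200 bp, -0.879 above the median signal). They also changed for Zelda (0.00849 with windows of 50 bp) and the initiator (0.465 with 250 bp, 1.16 with 50 bp). The TATAAA difference, whose reported interval excluded 0, went from 5.06 points as reported to -5.25 with 200 bp. No other sign changed. The causes were not tested. The GA repeat difference lay between -27.3 and -19.5 points under every alternative run. Depth is unknown and its effect was not tested. No paired analysis was possible because there is 1 group.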

Other observations

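Of the 8 strongest IDR peaks, 4 lay at divergent promoters, and 3 of these 4 shared a pair of words. The words TGNATGACG and TCGTGCA, on either strand, both lay within 100 bp of the summit at the peaks of Mic26-27 with CG5916, CG12299 with Vha16-5, DUBAI with Tmem18 and Dus2 with Fbxl4, which ranked 3, 4, 7 and 94. That was 4 of 240 divergent promoter peaks, against 0 of 2061 one-strand promoter peaks and 1 of 1874 peaks away from starts. Windows at the midpoints of all 2667 head-to-head pairs held both words at 0. The pairs of these 4 peaks are among the 2667, and their words lie more than 100 bp from the midpoints. The midpoint windows thus miss even these 4, and their 0 does not show that such pairs lack the words. The peak of rank 2, at CG3253 and CG4049, held TCGTGCA alone. The words were found by reading the strongest of these very sequences and counting words of 6 to 9 letters at the 20 strongest peaks, and 9 words were counted before this pair was kept. The choice favours the strongest peaks, so the counts describe and test nothing. The stretch with both words between the starts of CG12299 and Vha16-5 reads as follows on the plus strand of dm6 (RefSeq), with the words in capitals.
CG12299 and Vha16-5, chr2L:10737303-10737344: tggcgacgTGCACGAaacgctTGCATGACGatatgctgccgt

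Over the arms, 28 sites had both words within 60 bp of each other, a distance chosen after the data were seen. An IDR summit lay at 4 of the 28, all of them the divergent promoter peaks named, and a summit of the pooled relaxed list at 7.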
